A study of Homo sapiens with 6 samples.

Results

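The genes described here build, cut or bind the extracellular matrix: 9 collagen chains, 6 laminin chains, 3 matrix glycoproteins, 5 metalloproteases, 3 metalloprotease inhibitors, 4 genes of the plasminogen activator system, 8 integrin subunits and the cross-linking enzyme LOXL2. They were taken by Ensembl gene identifier from a list of 39 symbols. Of these, 36 were among the 28495 genes of the deposited table, and COL4A1, COL4A2 and TIMP3 were not analysed here because no row carried their identifiers. The 32 genes with a mean of at least 0.5 FPKM (fragments scaled for gene length and library size) over all libraries were tested. COL5A1, COL16A1, LAMA3 and LAMA4 lay below that level. The cells were NCI-H1299, an established human lung cancer line labelled as lung adenocarcinoma, sequenced as poly(A) RNA. There were 3 sh-CFB libraries, from cells labelled as targeted for silencing of complement factor B, and 3 sh-NC libraries, from cells labelled as controls. The titles name short hairpins while the table's column names are of the siRNA kind, so the form of the reagent is not settled. The labels do not state whether the replicates came from separate cultures. The p-values therefore describe the spread among these libraries alone, which may be technical.

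Collagens and laminins are trimers of 3 chains that are secreted and assembled outside the cell. Laminins and collagen type IV make the sheet of the basement membrane, and fibronectin, tenascins and thrombospondins bind both matrix and cells. Metalloproteases and the plasmin system cut these proteins, TIMP proteins and serpins hold the enzymes in check, and integrins, each a pair of an alpha and a beta subunit, tie the matrix to the cytoskeleton. In carcinomas these genes are known for their part in attachment, invasion and basement membrane crossing.

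Library depth, recovered from the steps between FPKM values, ran from 26.2 to 38.4 M reads (M, 1e6) in sh-CFB and from 32.9 to 40.0 M in sh-NC. The targeted gene CFB held 0, 0 and 2 reads in sh-CFB, against 1, 6 and 5 reads in sh-NC. These are too few to check each label or to show silencing of CFB at the RNA level. Of 6 epithelial markers KRT8 and KRT18 were abundant, KRT7 lay between 1.38 and 1.79 FPKM in sh-CFB and between 1.21 and 1.65 FPKM in sh-NC, and CDH1, EPCAM and KRT19 were at 0.218 FPKM or less in every library. Of 5 listed lung adenocarcinoma lineage markers SFTPB and SFTPC were at or near 0, NKX2-1 and NAPSA were at 0.339 FPKM or less, and MUC1 lay between 0.768 and 0.988 FPKM in sh-CFB and between 0.875 and 1.13 FPKM in sh-NC. The 5 summed to between 1.04 and 1.36 FPKM in sh-CFB and between 1.31 and 1.57 FPKM in sh-NC. The mesenchymal marker VIM was abundant. The mesenchymal markers ZEB1 and CDH2 were low, between 1.15 and 2.95 FPKM and between 1.43 and 2.85 FPKM over all libraries. The 5 listed fibroblast markers (COL3A1 and LUM were not listed) summed to between 0.245 and 0.322 FPKM in sh-CFB and between 0.258 and 0.329 FPKM in sh-NC. Endothelial markers summed to at most 0.199 FPKM and immune markers to at most 0.0758 FPKM in any library. The 1 listed erythroid marker reached at most 0.144 FPKM. Fibroblast, endothelial and immune genes were thus near 0 beside the abundant matrix genes. The fibroblast sum lay above the mean levels of COL16A1, LAMA3, LAMA4 and COL5A1, which were 0.185 FPKM or less over all libraries.

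Of the 32 tested genes, 3 rose in sh-CFB: the integrin subunit gene ITGB4, the laminin chain gene LAMB3 and the collagen chain gene COL6A2. None fell, and 29 did not pass the test (limma on log2(FPKM + 0.5), Benjamini-Hochberg adjusted over 12466 genes at 0.05). Among all tested genes 1.74% were higher and 5.71% lower in sh-CFB by the same rule, 7.45% together. At an unadjusted p under 0.05, 8 of the 32 genes were higher and 1 was lower, where 7.28% of all tested genes were higher and 18.6% lower. The libraries of the 2 groups did not overlap for 10 genes that were higher and 1 gene that was lower in sh-CFB, or 31.25% and 3.125% of the 32, where all tested genes gave 10.0% and 23.6% (33.7% in all). The median log2 fold change was 0.00 over the 32 genes and -0.15 over all tested genes, with 16 positive and 16 negative values. After a correction of each library for GC content and gene length, 7 genes were higher (ITGA3, ITGA5, ITGB4, ITGB5, LAMB3, PLAUR and TIMP1) and THBS1 was lower, against 4.53% and 5.89% of all tested genes (10.4% in either direction). Quantile normalization called 5 of the 32 genes higher: COL6A1, ITGB4, LAMA5, LAMB3 and TIMP1. Of all genes 3.73% were then higher and 5.1% lower (8.83% in all). Median-of-ratios factors called 2 higher, against 0.545% and 1.11% of all genes (1.65% in all), and equal totals called 2 higher, against 1.36% and 5.21% (6.57% in all). Without both replicate 1 libraries 2 were higher, against 1.36% and 4.25% (5.61% in all). ITGB4 passed as deposited and in each of these 5 alternatives, LAMB3 passed as deposited, with quantile normalization and with GC content and length corrected, and COL6A2 passed as deposited and in none of the 5. The calls also rested on single libraries: without 1 library at a time, between 0 and 1 of the genes passed, and ITGB4 was the only one that did.

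**Figure D1:**
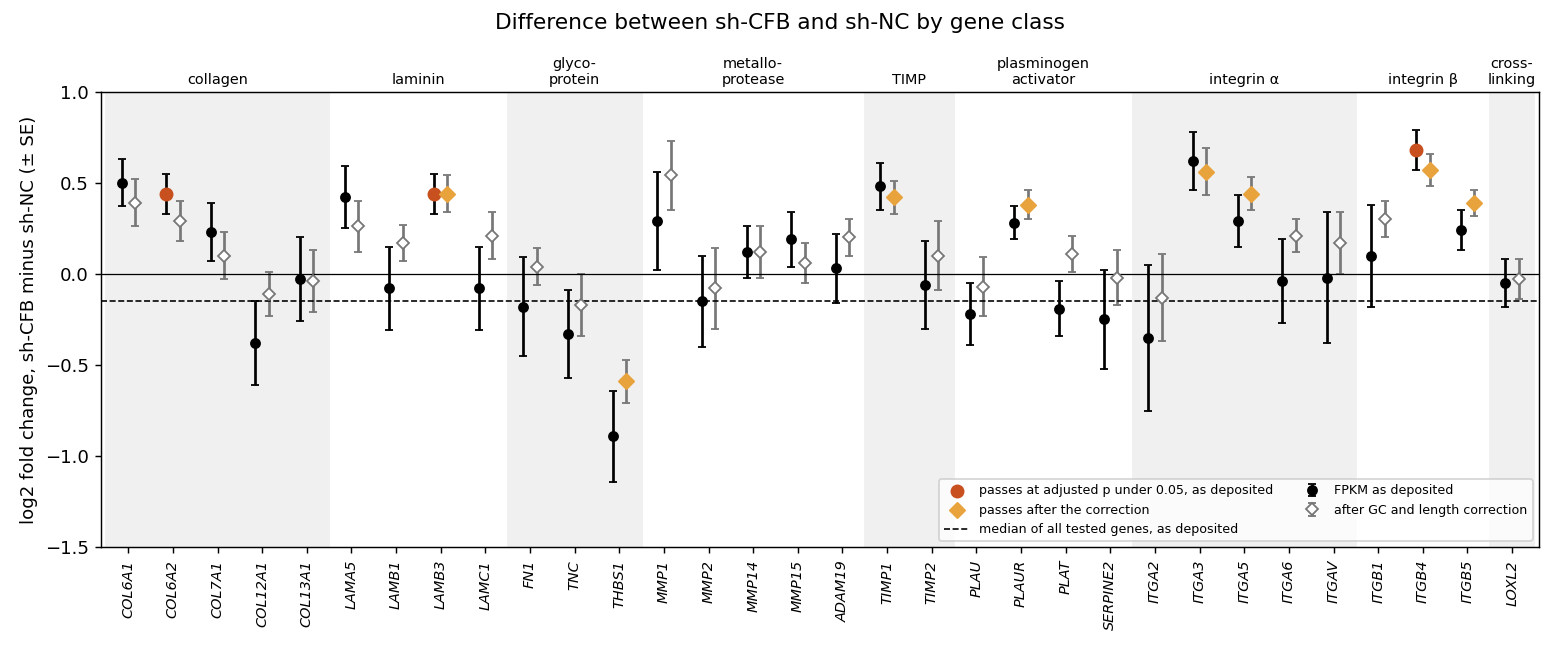
Log2 fold change of each tested gene, sh-CFB minus sh-NC, with its standard error, as deposited (circles) and after the GC and length correction (diamonds), by gene class. Filled colour marks genes past the test: ITGB4, LAMB3 and COL6A2 as deposited, and 7 higher and 1 lower after the correction. The dashed line is the median of all tested genes, -0.15.

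Promoter windows from RefSeq (GRCh38.p14), the 250 bases before an annotated start, were available for 31 of the 39 genes in 41 windows. The windows shown belong to 2 genes that rose (COL6A2 and LAMB3), to PLAUR, chosen because its window holds an AP-1 match, and to THBS1, the gene with the largest negative difference. They are given 5′ to 3′ on the gene's strand, with capitals marking matches on either strand to the AP-1 motif TGANTCA, the CCAAT box CCAAT and the GC box GGGCGG. The AP-1 motif was searched because the series title names FOS, a subunit of AP-1.
LAMB3 (chr1:209651375-209651624, reverse strand): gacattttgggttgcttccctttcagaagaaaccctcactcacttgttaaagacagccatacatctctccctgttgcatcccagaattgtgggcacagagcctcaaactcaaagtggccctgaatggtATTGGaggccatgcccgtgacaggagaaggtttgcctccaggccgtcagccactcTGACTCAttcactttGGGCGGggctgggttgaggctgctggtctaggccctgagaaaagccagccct
COL6A2 (chr21:46097862-46098111, forward strand): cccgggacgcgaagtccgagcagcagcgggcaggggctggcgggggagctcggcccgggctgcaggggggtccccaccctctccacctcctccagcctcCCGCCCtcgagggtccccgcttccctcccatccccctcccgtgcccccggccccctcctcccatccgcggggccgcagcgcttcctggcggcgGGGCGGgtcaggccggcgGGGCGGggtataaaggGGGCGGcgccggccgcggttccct
PLAUR (chr19:43670170-43670419, reverse strand): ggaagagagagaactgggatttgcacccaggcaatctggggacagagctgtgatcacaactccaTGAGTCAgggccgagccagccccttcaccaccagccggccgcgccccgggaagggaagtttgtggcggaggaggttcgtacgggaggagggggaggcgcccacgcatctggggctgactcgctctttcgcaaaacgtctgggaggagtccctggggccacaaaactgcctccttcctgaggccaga
THBS1 (chr15:39580829-39581078, forward strand): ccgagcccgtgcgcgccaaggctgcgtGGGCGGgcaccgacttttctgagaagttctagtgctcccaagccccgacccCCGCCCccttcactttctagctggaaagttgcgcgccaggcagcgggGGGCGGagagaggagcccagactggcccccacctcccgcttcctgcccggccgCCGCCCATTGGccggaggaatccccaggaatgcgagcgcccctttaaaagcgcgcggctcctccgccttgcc
The LAMB3 window shown, 1 of 3 for that gene, held 1 AP-1 match, 1 CCAAT box and 1 GC box. The remaining LAMB3 windows held 1 GC box each and no AP-1 match or CCAAT box. The PLAUR window held 1 AP-1 match, the COL6A2 window 4 GC boxes, and the THBS1 window 1 CCAAT box directly beside 1 of its 4 GC boxes. An AP-1 match stood in 3 of the 41 windows, the other being that of LAMA3, and in 6.57% of 35116 RefSeq windows of that length. GC boxes stood in 31 of the 41 windows and in 42.6% of all windows, and CCAAT boxes in 10 of the 41 and in 32% of all. The windows of TIMP1, ITGB5, COL7A1 and MMP15, whose sh-CFB libraries also lay above those of sh-NC, held no AP-1 match. These are matches of letters and not measured binding sites, and ITGB4 had no window.

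Among collagens, 1 of 5 tested chains rose and 4 did not pass, with a class median log2 fold change of 0.23. COL6A2, a chain of the microfibrillar collagen type VI (ENSG00000142173, chromosome 21 from 46098097 to 46132849, GRCh38), stood at 63.9, 62.8 and 74.3 FPKM in sh-CFB libraries 1, 2 and 3, against 51.3, 51.3 and 44.9 FPKM in sh-NC. All sh-CFB libraries lay above all sh-NC libraries, with means of 67.0 ± 6.37 and 49.2 ± 3.68 FPKM (SD, n = 3 each). The log2 change was 0.44 (SE 0.11, adjusted p = 0.0480 with limma), just inside the threshold. Corrected for GC content and length it was 0.29 (adjusted p = 0.136), and the adjusted p lay above 0.05 whichever library was left out. COL6A1, the partner chain encoded nearby on chromosome 21, was listed at 21.5, 20.6 and 25.3 FPKM in sh-CFB and 17.6, 16.3 and 13.6 FPKM in sh-NC. Its groups did not overlap either, but its log2 difference of 0.50 missed the threshold (SE 0.13, adjusted p = 0.0610). COL6A1 passed in 1 of the 19 limma fits, that with quantile normalization (0.62, adjusted p = 0.0276).

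COL6A3, which encodes the remaining main chain of type VI, was nearly absent, at 0.00943 FPKM or less in every library. COL13A1, a transmembrane collagen, stood at 3.98, 4.95 and 7.04 FPKM in sh-CFB and 6.40, 5.66 and 4.15 FPKM in sh-NC, with overlapping groups and a difference of -0.03 (SE 0.23). COL7A1, the anchoring fibril collagen, and COL12A1, a collagen that decorates fibrils, were low, at means of 0.648 and 0.826 FPKM in sh-CFB and 0.477 and 1.25 FPKM in sh-NC. Their differences were 0.23 and -0.38 (adjusted p = 0.400 and 0.332). COL7A1 reached the filter of 0.5 FPKM only through its sh-CFB libraries, and it is counted among the higher genes without overlap. COL5A1, a fibrillar collagen, had 0 reads in every sh-CFB library, against 2, 0 and 2 reads in sh-NC, under the floor of 3 reads per library. COL16A1 had 25, 38 and 98 reads in sh-CFB, against 83, 76 and 53 reads in sh-NC, overlapping groups (exact permutation test, two-sided, p = 0.5).

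**Figure D2:**
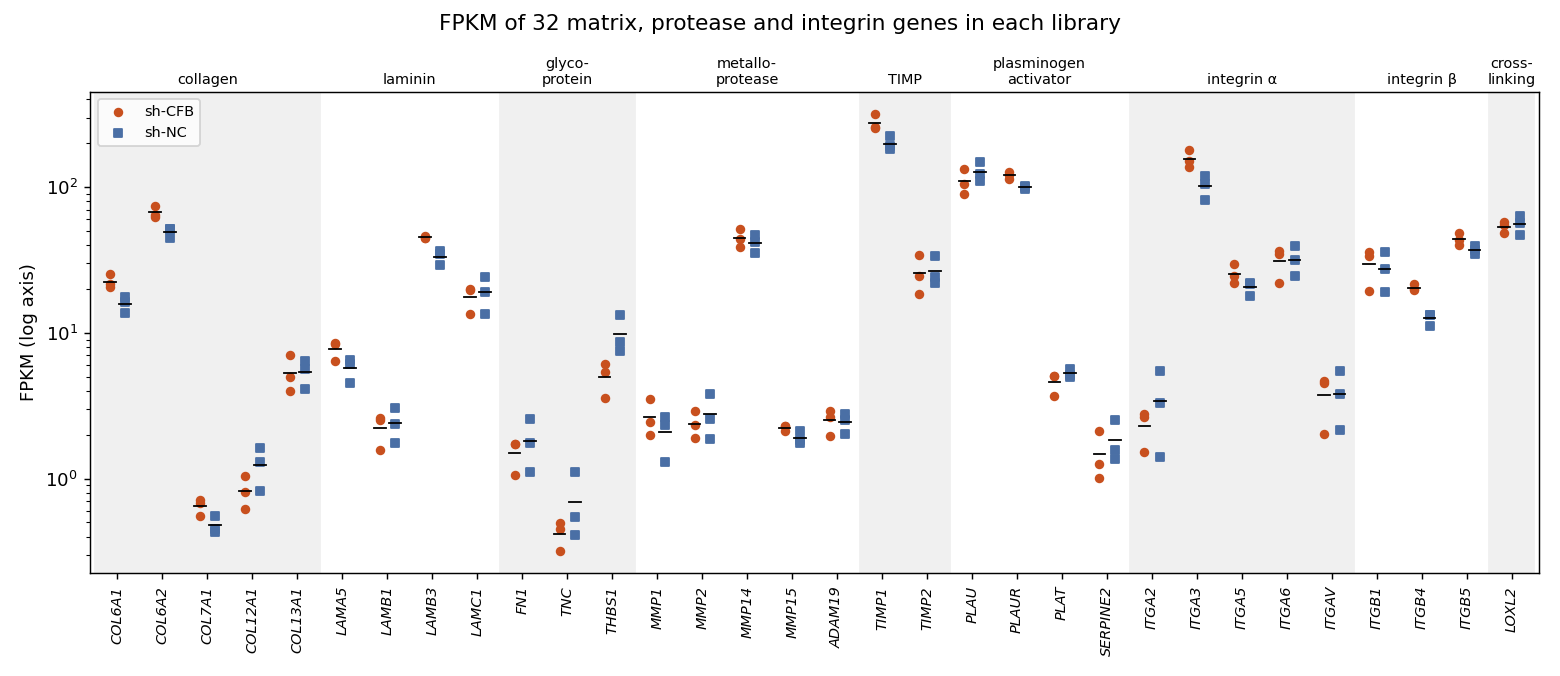
FPKM of the 32 tested genes in each library on a log axis, by class, with sh-CFB libraries as circles to the left of sh-NC libraries as squares and the group mean as a bar. TIMP1 is highest at 253.2 to 319.0 FPKM in sh-CFB and 181.2 to 224.3 FPKM in sh-NC, and TNC is lowest.

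Among laminins, 1 of 4 tested chains rose and 3 did not pass, with a median of 0.17. LAMB3, the beta chain of laminin-332 of epithelial basement membranes (ENSG00000196878, chromosome 1 from 209614870 to 209652466), was at 44.9, 44.9 and 45.8 FPKM in sh-CFB, against 34.7, 36.2 and 29.1 FPKM in sh-NC. The sh-CFB libraries differed little and all lay above sh-NC, with means of 45.2 ± 0.540 and 33.4 ± 3.74 FPKM (SD, n = 3 each). The change was 0.44 (SE 0.11, adjusted p = 0.0478), and 0.44 again once corrected for GC content and length (adjusted p = 0.0331). It did not pass when any 1 library was left out, with median-of-ratios factors (0.64, adjusted p = 0.0679) or with FPKM rescaled to equal totals (0.38, adjusted p = 0.114).

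LAMA3, the alpha chain that joins LAMB3 in laminin-332, lay below the filter, with 35, 73 and 116 reads in sh-CFB, against 132, 101 and 32 reads in sh-NC (exact permutation test, two-sided, p = 1). The remaining laminin chains belong to the wider basement membrane. LAMA5, an alpha chain of laminin-511, was at 6.45, 8.58 and 8.39 FPKM in sh-CFB and 6.50, 6.13 and 4.52 FPKM in sh-NC, a difference of 0.42 (SE 0.17, adjusted p = 0.178) with overlapping groups. LAMA5 passed in 1 of the 19 limma fits, that with quantile normalization (0.59, adjusted p = 0.0289). Of its exon bases 1.71% are shared with ADRM1 on the opposite strand, listed at a mean of 46.4 FPKM. LAMC1 and LAMB1, its gamma and beta partners, both stood at -0.08 (SE 0.23 each), with means of 17.7 and 2.23 FPKM in sh-CFB and 18.9 and 2.40 FPKM in sh-NC. LAMA4 held 12, 3 and 8 reads in sh-CFB, against 7, 24 and 11 reads in sh-NC.

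None of the 3 glycoprotein genes passed, and all had negative values, with a median of -0.33. THBS1, the matricellular protein thrombospondin-1, which binds CD47 and activates latent TGF-beta, showed the widest gap (ENSG00000137801, chromosome 15 from 39581079 to 39599466). It was listed at 3.55, 5.43 and 6.07 FPKM in sh-CFB, against 13.2, 8.71 and 7.47 FPKM in sh-NC. Every sh-CFB library lay below every sh-NC library, but the sh-NC libraries spread widely. The means were 5.01 ± 1.31 and 9.79 ± 3.01 FPKM (SD, n = 3 each), and the log2 difference of -0.89 missed the threshold (SE 0.25, adjusted p = 0.0711). The value corrected for GC content and length was -0.59 with a smaller error (SE 0.12, adjusted p = 0.0263). FN1, fibronectin, stood at 1.05, 1.72 and 1.73 FPKM in sh-CFB and 2.57, 1.77 and 1.11 FPKM in sh-NC, overlapping groups with a difference of -0.18 (SE 0.27). TNC, tenascin-C, averaged 0.420 ± 0.0923 FPKM in sh-CFB and 0.688 ± 0.367 FPKM in sh-NC (SD, n = 3 each), a difference of -0.33 (adjusted p = 0.423). It reached the filter of 0.5 FPKM only through its sh-NC libraries.

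None of the 5 metalloprotease genes passed the test as deposited or after the GC and length correction. MMP14, the membrane-anchored protease that activates pro-MMP2, was the most abundant, at 38.9, 44.3 and 51.4 FPKM in sh-CFB and 46.6, 41.7 and 35.3 FPKM in sh-NC. The groups overlapped, with a difference of 0.12 (SE 0.14, adjusted p = 0.641). MMP1, the interstitial collagenase and a textbook AP-1 target, was low, at 1.98, 2.45 and 3.53 FPKM in sh-CFB and 2.67, 2.34 and 1.30 FPKM in sh-NC. Its difference of 0.29 had a standard error of 0.27 (adjusted p = 0.543), while the value after the correction was 0.54 (adjusted p = 0.111), so a change could not be separated from the spread. MMP2, a gelatinase, MMP15, a relative of MMP14, and ADAM19, a membrane sheddase, had differences of -0.15, 0.19 and 0.03, with mean levels between 2.07 and 2.57 FPKM over all libraries.

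TIMP1, an inhibitor of metalloproteases with a broad range, had the highest FPKM of all genes described. It stood at 319.0, 253.2 and 259.7 FPKM in sh-CFB, against 181.2, 191.4 and 224.3 FPKM in sh-NC. The groups did not overlap, with means of 277.3 ± 36.3 and 199.0 ± 22.5 FPKM (SD, n = 3 each), yet the difference of 0.48 missed the threshold (SE 0.13, adjusted p = 0.0674). It passed after the GC and length correction (0.42, adjusted p = 0.0314), with equal totals (0.42, adjusted p = 0.0485) and with quantile normalization (0.40, adjusted p = 0.0346). Its highest value was in sh-CFB replicate 1, and without that library the difference was 0.37 (adjusted p = 0.143). TIMP2, which also takes part in MMP2 activation on MMP14, averaged 25.7 ± 7.75 FPKM in sh-CFB and 26.5 ± 6.21 FPKM in sh-NC (SD, n = 3 each), a difference of -0.06.

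None of the 4 plasminogen activator system genes passed as deposited. PLAU, the urokinase that turns plasminogen into plasmin, stood at 90.2, 104.9 and 133.1 FPKM in sh-CFB and 148.9, 123.1 and 109.9 FPKM in sh-NC. These groups overlapped, with a difference of -0.22 (SE 0.17, adjusted p = 0.442). Of its annotated exon bases, 31.05% are shared with C10orf55 on the opposite strand, and the strand setting of the counting is not known. PLAUR, the receptor that holds urokinase at the cell surface, was at 121.1, 114.1 and 127.9 FPKM in sh-CFB and 100.3, 97.1 and 101.7 FPKM in sh-NC. All sh-CFB libraries were higher, but the difference of 0.28 did not pass (adjusted p = 0.0962). Its corrected value, 0.38, did (adjusted p = 0.0243), in 1 of the 19 fits. PLAT, the tissue activator, and SERPINE2, an inhibitor of plasminogen activators and thrombin, had differences of -0.19 and -0.25 (adjusted p = 0.492 and 0.603), with means of 4.62 and 1.47 FPKM in sh-CFB and 5.28 and 1.83 FPKM in sh-NC.

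Of 3 integrin beta subunit genes, 1 rose. ITGB4, the long-tailed subunit that pairs with alpha-6, binds laminin-332 and anchors hemidesmosomes (ENSG00000132470, chromosome 17 from 75721328 to 75757818), was at 19.7, 19.8 and 21.8 FPKM in sh-CFB, against 13.2, 13.3 and 11.2 FPKM in sh-NC. The groups were tight and well apart, with means of 20.4 ± 1.15 and 12.6 ± 1.2 FPKM (SD, n = 3 each). The log2 change was 0.68 (SE 0.11, adjusted p = 0.0153), or 1.61-fold. It passed in 14 of the 19 fits, among them those with other scalings and after the GC and length correction (0.57, adjusted p = 0.0140). It did not pass without sh-CFB replicate 2 (adjusted p = 0.0660), sh-CFB replicate 3 (adjusted p = 0.0513) or sh-NC replicate 2 (adjusted p = 0.0857), although its log2 change stayed between 0.60 and 0.73 when single libraries were left out.

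ITGB1, the common partner of most alpha subunits, stood at 19.4, 33.5 and 35.7 FPKM in sh-CFB and 36, 27.6 and 18.9 FPKM in sh-NC. The spread within each group was larger than the difference of 0.10 (SE 0.28). The authors' gene length for ITGB1, recovered as 14561 bases, is longer than the 6011 annotated exon bases in GENCODE 29. The FPKM of ITGB1 is therefore lower than that annotation would give. Recovered lengths were also longer for LAMB1 (18592 against 8140 bases), COL13A1 (11509 against 5888), COL12A1 (18860 against 12481) and MMP1 (2738 against 1970). Their FPKM are lower for the same reason, as is the ratio of LAMB1 to LAMC1 given below. ITGB5, a partner of alpha-V that binds vitronectin, was at 40.0, 43.5 and 48.5 FPKM in sh-CFB and 39.6, 37.3 and 34.7 FPKM in sh-NC. Its groups lay close without overlap, and the difference of 0.24 passed only after the GC and length correction (adjusted p = 0.208 as deposited, 0.39 and adjusted p = 0.0205 corrected).

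None of the 5 alpha subunit genes passed as deposited. ITGA3, which with beta-1 binds laminin-332 and laminin-511, was the most abundant integrin gene, at 138.2, 150.1 and 180.8 FPKM in sh-CFB, against 118.3, 105.2 and 81.8 FPKM in sh-NC. The groups did not overlap, with means of 156.4 ± 21.9 and 101.7 ± 18.5 FPKM (SD, n = 3 each), and the difference of 0.62 lay just outside the threshold (SE 0.16, adjusted p = 0.0565). It passed after the GC and length correction (0.56, adjusted p = 0.0354), with a minimum mean of 1 FPKM (0.62, adjusted p = 0.0485), with median-of-ratios factors (0.83, adjusted p = 0.0489) and without both replicate 1 libraries (0.83, adjusted p = 0.0277). ITGA5, the fibronectin receptor subunit, averaged 25.4 ± 3.98 FPKM in sh-CFB and 20.5 ± 2.27 FPKM in sh-NC (SD, n = 3 each). Its difference of 0.29 did not pass (adjusted p = 0.230), while the corrected value of 0.44 did (adjusted p = 0.0291).

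ITGA6, the partner of ITGB4, did not pass the test. It stood at 22.1, 34.9 and 36.2 FPKM in sh-CFB and 39.4, 31.6 and 24.6 FPKM in sh-NC, a difference of -0.04 (SE 0.23). ITGAV, which binds vitronectin and other ligands with an RGD motif, had a difference of -0.02 (SE 0.36). ITGA2, a collagen receptor subunit, was at 1.53, 2.77 and 2.64 FPKM in sh-CFB and 5.45, 3.29 and 1.41 FPKM in sh-NC, with the widest standard error of the genes described (-0.35, SE 0.40). LOXL2, which cross-links collagen and elastin and was the only member of its class, stood at 48.3, 54.9 and 57.4 FPKM in sh-CFB and 63.0, 57.1 and 46.9 FPKM in sh-NC. Its groups overlapped, with a difference of -0.05 (SE 0.13, adjusted p = 0.844).

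Partner genes were also compared within each library, as the log2 ratio of their FPKM + 0.5, in which the scaling of a library largely cancels except for genes of low FPKM. On this scale the difference of a pair follows from the log2 differences of its 2 genes given above. The pairs thus restate those values and are not separate evidence, and that of ITGA6 to ITGB4 contains the ITGB4 change. Of 12 pairs, 10 could be compared, since COL4A1 and COL4A2 were not listed and LAMA3 lay below the filter. The ratio of ITGA6 to ITGB4 on the log2 scale was 0.17, 0.80 and 0.72 in sh-CFB, against 1.54, 1.22 and 1.10 in sh-NC, without overlap. The difference was -0.72, and -0.36 after the GC and length correction, again without overlap. The ratio of ITGA3 to ITGB1 was 2.80, 2.15 and 2.32 in sh-CFB, against 1.70, 1.91 and 2.08 in sh-NC, a difference of 0.53, or 0.26 after the correction, without overlap both times. The ratio of PLAU to PLAUR was -0.42, -0.12 and 0.06 in sh-CFB, against 0.57, 0.34 and 0.11 in sh-NC, a difference of -0.50, and its groups overlapped after the correction. For each of these 3 pairs the exact permutation test (two-sided) gave 0.1, which 3 against 3 libraries cannot undercut, and 0.333 when adjusted over the 10 pairs. For chains of 1 protein the ratios overlapped between groups. COL6A1 to COL6A2 averaged -1.56 in sh-CFB and -1.61 in sh-NC, and LAMB1 to LAMC1 averaged -2.74 in sh-CFB and -2.73 in sh-NC. An effect of GC content need not cancel in these ratios. GC content was 42.9% for ITGA6 and 63.7% for ITGB4, and 61.3% for ITGA3 and 40.0% for ITGB1. Partners were closer for COL6A1 and COL6A2 (63.5% and 66.4%), LAMB1 and LAMC1 (49.5% and 48.65%) and PLAU and PLAUR (53.95% and 55.7%). Groups overlapped for ITGAV (38.25%) to ITGB5 (54.25%) and for ITGA5 (54.5%) to ITGB1. Neither the part of GC content beyond the correction nor the share among other gene pairs was tested.

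**Figure D3:**
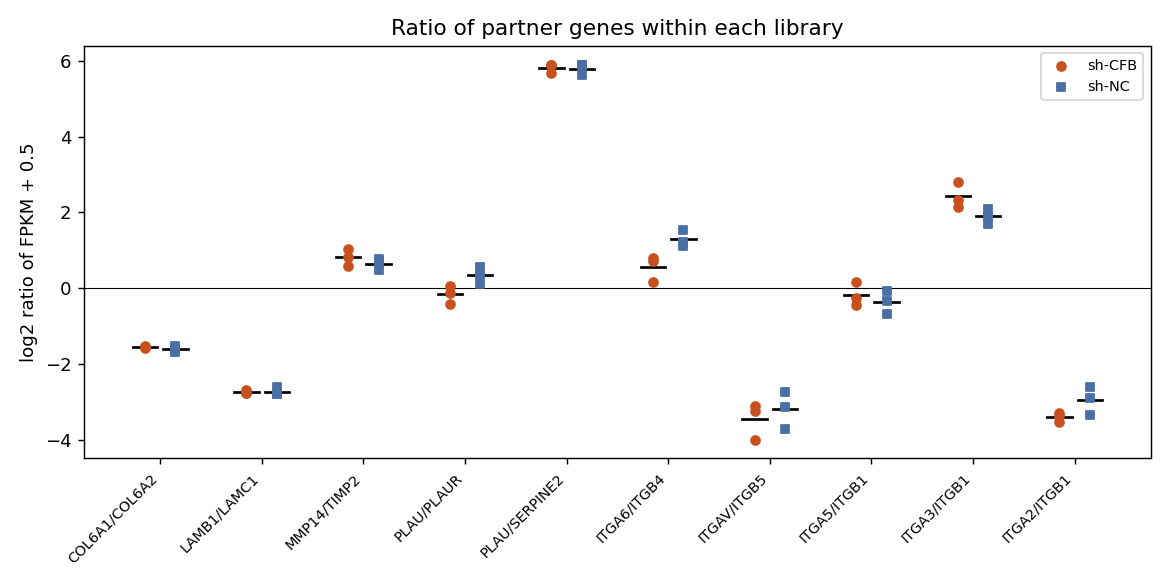
Log2 ratio of FPKM + 0.5 of 2 partner genes within each library, with sh-CFB libraries as circles to the left of sh-NC libraries as squares and group means as bars. The groups do not overlap for ITGA6/ITGB4, PLAU/PLAUR and ITGA3/ITGB1.

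Most of these genes varied between libraries of 1 group in the same way. Within sh-CFB, replicate 1 held the lowest value for 27 of 32 genes and replicate 3 the highest for 25, where 65.3% and 49.5% of all tested genes had them in those libraries. Within sh-NC, replicate 3 held the lowest value for 27 genes and replicate 1 the highest for 26, against 54.2% and 56.1% of all tested genes. Across all tested genes, GC content was related to how far each library lay from a gene's mean, with Spearman's rho at 0.60, -0.10 and -0.16 for sh-CFB libraries 1 to 3, and -0.55, -0.25 and 0.23 for sh-NC. For gene length rho was -0.32, 0.06 and 0.16 for sh-CFB libraries, and 0.35, 0.23 and -0.32 for sh-NC, and the genes described had a median length of 7543.5 bases, against 4533 over all tested genes. The values for GC content are over 12397 genes of the same 6 libraries and are a description. The 7 genes in the lowest of 3 ranges of GC content (FN1, ITGA2, ITGA6, ITGAV, ITGB1, MMP1 and SERPINE2) were all lowest in replicate 1 within sh-CFB and in replicate 3 within sh-NC.

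**Figure D4:**
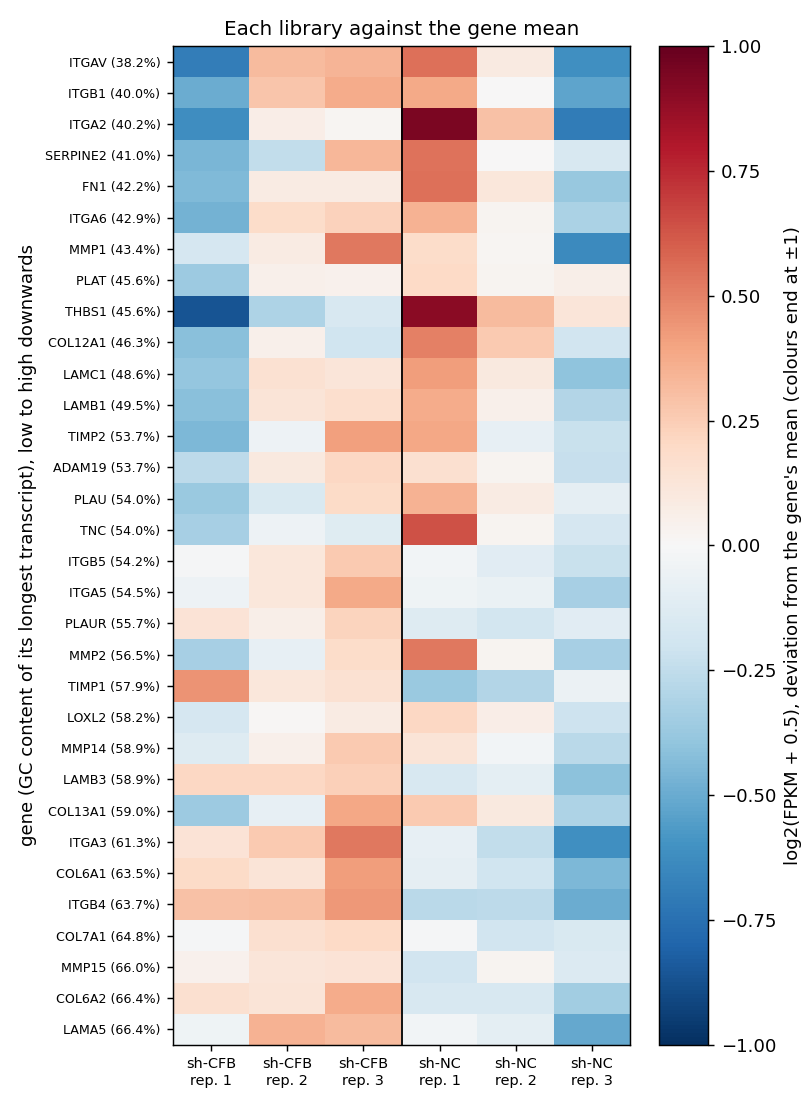
Deviation of log2(FPKM + 0.5) from each gene's mean in the 6 libraries, sh-CFB on the left and sh-NC on the right, with genes from low GC content at the top to high at the bottom. Genes of low GC content are low in sh-CFB replicate 1 and sh-NC replicate 3 and high in sh-NC replicate 1, while ITGB4, COL6A2 and LAMB3 are higher in every sh-CFB library than in any sh-NC library.

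The 3 genes that rose all had high GC content, 63.7% for ITGB4, 58.9% for LAMB3 and 66.4% for COL6A2. In the highest range of GC content (54.2% and above), 16 of the genes described were tested, 13 had positive values, and their median was 0.29. Over all 4155 tested genes of that GC range the median was 0.05, with 4.6% called higher and 3.83% lower. In the middle range, 1 of 9 genes was positive with a median of -0.19, where all genes had a median of -0.24. In the lowest range, 2 of 7 were positive with a median of -0.04, where all genes had a median of -0.19. After the GC and length correction the medians were 0.17, 0.10 and 0.34 from the low to the high range. The part of GC content in the single differences was not tested beyond that correction.

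**Figure D5:**
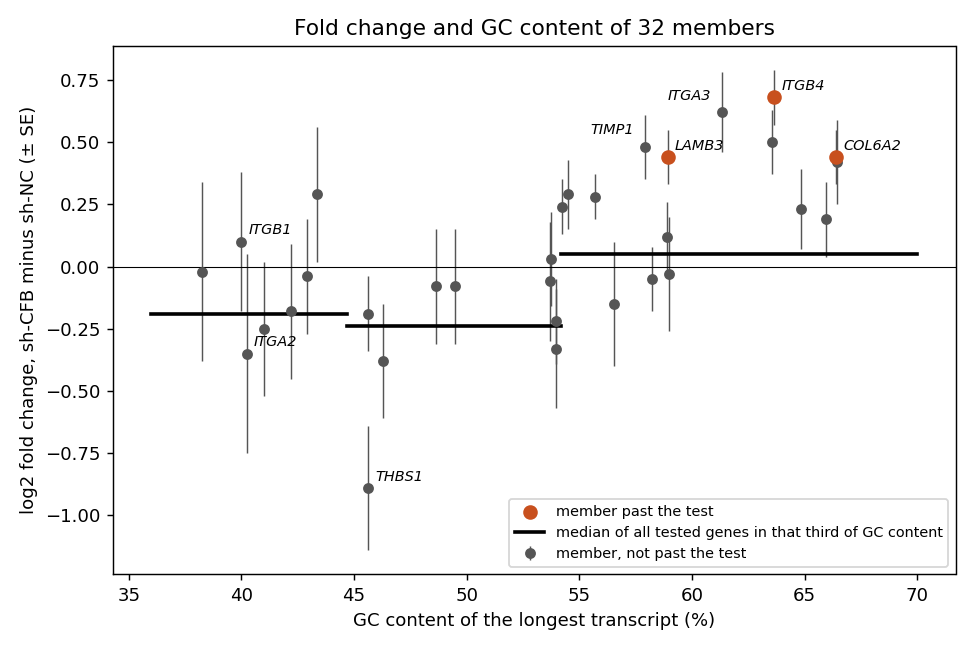
Log2 fold change with its standard error against GC content of the longest transcript for the 32 tested genes. Bars are medians of all tested genes in each of the 3 GC ranges, -0.19, -0.24 and 0.05, drawn only over the range of the axis. The 3 genes past the test lie at 58.9% GC or more.

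A wider list of 140 other matrix and adhesion genes held 131 listed and 76 tested genes, of which 5 rose, 2 fell and 69 did not pass. The shares of 6.58% higher and 9.21% called in either direction stood beside 1.74% and 7.45% of all tested genes, and the list median was 0.06. PLOD1, a lysyl hydroxylase that prepares collagen for cross-linking, rose with the smallest adjusted p of these, at 101.6, 89.3 and 87.2 FPKM in sh-CFB and 58.8, 64.6 and 58.0 FPKM in sh-NC (log2 change 0.61, SE 0.10, adjusted p = 0.0157). It passed in 13 of 19 fits. ITGA10, a collagen-binding subunit, was at 3.82, 5.97 and 6.94 FPKM in sh-CFB and 2.97, 2.78 and 2.43 FPKM in sh-NC (0.88, adjusted p = 0.0493). MMP11, stromelysin-3, rose by 0.74 (adjusted p = 0.0407), and LAMB2, a beta chain that can replace LAMB1 in laminins, by 0.73 (adjusted p = 0.0482). MMP17, named after its values were seen, was the fifth, at 0.53 (adjusted p = 0.0478).

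The genes that fell on the wider list were SERPINB8, a serpin that inhibits furin, and CCN2, a matricellular growth factor. SERPINB8 was listed at 0.331, 0.468 and 0.519 FPKM in sh-CFB, against 1.62, 1.17 and 0.948 FPKM in sh-NC (log2 change -0.88, SE 0.20, adjusted p = 0.0402). Its sh-CFB mean of 0.439 FPKM lay under the filter of 0.5 FPKM, which SERPINB8 passed only through sh-NC (mean 1.25 FPKM). At a minimum mean of 1 FPKM it was not tested, since its mean over all libraries was 0.842 FPKM. CCN2 was at 25.2, 28.3 and 32.1 FPKM in sh-CFB and 43.2, 36.9 and 41.3 FPKM in sh-NC (-0.50, SE 0.12, adjusted p = 0.0463), and did not pass after the GC and length correction. Among the 15 tested genes for cross-linking and processing enzymes 1 rose, and none of 16 adhesion partners or 3 tested collagens passed. After the correction 14 of the 76 genes were higher and 2 lower, where 4.53% of all tested genes were higher and 5.89% lower.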

How the data were processed

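RNA of 3 sh-CFB and 3 sh-NC libraries of NCI-H1299 cells was measured. Values are FPKM, made by the authors and deposited as 1 table. All 6 library columns were used. RNA came from TRIzol lysates and was made into stranded poly(A) libraries, per the labels' protocols. The submitters' processing notes name STAR 2.7.3a, featureCounts 2.0.1, FastQC 0.11.9, Trimmomatic 0.39 and GRCh38, in no stated order. How FPKM was computed, with which annotation and strand setting, is not known here.

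Gene IDs were paired with symbols through a supplied name table. Coordinates, exon length and GC content (longest transcript) came from GENCODE 29. Reads and gene lengths were recovered from the FPKM steps, and came out whole within 0.02 for 99.94% of genes. Floors of 3 reads cover counting error only. Among genes with few reads, between 62.0% and 63.1% had even counts in each library. Recovered reads may therefore not be independent fragments. Whether both mates of a pair were counted was not tested.

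Genes with a mean of at least 0.5 FPKM over all libraries were fitted as log2(FPKM + 0.5), a scale that understates changes of low genes, with limma 3.58.1 in R 4.3.3 (moderated test, intensity trend, Benjamini-Hochberg at 0.05 over all 12466 genes). The script was tested on simulated data. The GC and length correction subtracts, in each library, a spline curve (5 degrees of freedom each) fitted to deviations from gene means. Exact permutation tests over libraries cannot go below 0.1. Values per library are given for genes past the test, for the most abundant gene and the largest difference of each class, and for partner genes, and on the wider list for up to 4 genes per direction. Some results are not reported here. The members and lists were chosen with earlier results of these data known. Tables and figures were made in Python 3.11.15 (matplotlib 3.10.9, scipy 1.17.1, pandas 2.3.3, numpy 2.4.6).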

Additional observations from a re-analysis of the deposited data

How the results depend on the processing

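The direction of ITGB4, LAMB3, COL6A2, COL6A1, ITGA3, TIMP1, PLAUR and THBS1 was the same in all 19 fits, while their side of the threshold was not. The number of genes called among the 32 was 3 higher and 0 lower. Without a filter on low values it was 1 higher of 36, and at a mean FPKM of at least 1 it was 4 higher of 30. Among the 32 it was 1 higher with voom on recovered reads and 5 with quantile normalization. With GC content and length corrected it was 7 higher and 1 lower. Leaving out 1 library gave 0 to 1 higher. The count of all genes changed was 929 of 12466, and 206 with median-of-ratios factors. It was 324 of 28495 without a filter, 1062 of 10306 at a mean FPKM of at least 1, and 676 of 12449 with voom. Without 1 library it was 20 to 544 (41 without sh-CFB replicate 2, 20 without sh-NC replicate 2). On the wider list 5 were higher and 2 lower of 76. These counts were 1 and 0 of 131 without a filter, 2 and 0 with median-of-ratios factors, and 2 and 1 with equal totals. They were 12 and 1 with quantile normalization, and 3 and 1 with voom. There were 14 higher with GC content and length corrected, and 1 lower at a mean FPKM of at least 1. Without 1 library 0 to 2 were higher and 0 to 1 lower, and without both replicate 1 libraries 3 and 0. That last setting, chosen after seeing the data, moved the median of the described genes to 0.31, where the median of all tested genes moved to 0.00.

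Deviations from group means correlated at -0.54, 0.07 and -0.45 between same-numbered libraries, and at -0.38 to 0.57 between differently numbered ones. Library deviations were related to GC content and gene length, so these correlations cannot show whether the numbers mark pairs. The labels name no pairing, and the numbers were not taken as pairs. With the replicate block 0 genes were called, with or without the GC and length correction, among the 32, the wider list and all genes.

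Some differences, none past the test, changed sign; the cause was not tested. With median-of-ratios factors these were COL13A1 0.15, LAMB1 0.09, LAMC1 0.12, MMP2 0.02, TIMP2 0.14, ITGA6 0.16, ITGAV 0.16 and LOXL2 0.15. With quantile normalization they were COL13A1 0.14, LAMB1 0.08, LAMC1 0.06, TIMP2 0.05, ITGA6 0.04 and ITGAV 0.16, and the LAMB1/LAMC1 ratio 0.02 and the PLAU/SERPINE2 ratio -0.12. With the GC and length correction, also with the replicate block, they were LAMB1 0.17, LAMC1 0.21, FN1 0.04, TIMP2 0.10, PLAT 0.11, ITGA6 0.21 and ITGAV 0.17, and without the block the PLAU/SERPINE2 ratio -0.05. With equal totals ADAM19 was -0.02, and with a pseudocount of 1 the LAMB1/LAMC1 ratio was 0.01 and the PLAU/SERPINE2 ratio -0.02. Without both replicate 1 libraries they were COL13A1 0.26, LAMB1 0.27, LAMC1 0.29, FN1 0.22, MMP2 0.20, TIMP2 0.32, PLAU 0.02, SERPINE2 0.12, ITGA2 0.25, ITGA6 0.35, ITGAV 0.59 and LOXL2 0.12, and the ratios MMP14/TIMP2 -0.01, PLAU/SERPINE2 -0.10, ITGAV/ITGB5 0.24 and ITGA5/ITGB1 -0.14. Without 1 library they ranged as follows: COL13A1 from -0.24 to 0.14, LAMB1 from -0.25 to 0.11, LAMC1 from -0.29 to 0.11, FN1 from -0.42 to 0.05, MMP2 from -0.36 to 0.08, ADAM19 from -0.08 to 0.17, TIMP2 from -0.28 to 0.15, ITGA2 from -0.79 to 0.03, ITGA6 from -0.21 to 0.18, ITGAV from -0.33 to 0.32, ITGB1 from -0.14 to 0.37, LOXL2 from -0.17 to 0.04, LAMB1/LAMC1 ratio from -0.03 to 0.05, PLAU/SERPINE2 ratio from -0.06 to 0.10 and ITGAV/ITGB5 ratio from -0.52 to 0.02.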
